A study of Mus musculus with 15 samples.

Results

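The genes described here are the 5 subunits of the transcription factor NF-kB (Nfkb1, Nfkb2, Rela, Relb and Rel) and 5 of its inhibitors and feedback genes (Nfkbia, Nfkbie, Nfkbiz, Bcl3 and Tnfaip3). They were listed by name, because NF-kB is a redox target of the protein that the study's compound inhibits, with earlier results of these data known. All 10 were found among the 56859 genes of a count table from mouse colon, and all 10 had enough counts to enter the test, together with 18038 genes in all. The table holds 15 RNA-seq libraries from male C57BL/6J mice, in 5 groups of 3 libraries. The growth protocol gives an age of 6 to 10 weeks. Whether that is the age at the start or at collection is not settled here, so groups of different days may also differ in age. The libraries come from a model of colon cancer driven by colitis: mice are injected with the carcinogen azoxymethane (AOM) and then drink dextran sulfate sodium (DSS), a chemical that injures the gut lining, in cycles. The shared protocol sets AOM at 10 mg/kg on day 0, with DSS at 2.5% from day 7 to day 11, day 28 to day 32 and day 49 to day 53. The APX3330 group (APX3330 is also called E3330) was injected once a day with 25 mg/kg of the compound on the DSS days, and its labels give no day of collection. The saline D27, saline D48 and saline D100 groups had saline injections on the same days and are described as day 27, day 48 and day 100. Titles name D48 as cycle 1 and D100 as cycle 2, and give no cycle for D27 or APX3330. The Control group is labelled only as wild type, while the protocol states AOM for all mice, so whether it had AOM is not settled here. No day matches APX3330 to a saline group, so a difference between APX3330 and a saline group may also be one of day.

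NF-kB proteins act as dimers that are held in the cytoplasm by inhibitor proteins of the IkB family. In the canonical pathway, signals from receptors for TNF, IL-1 and microbial products activate the IkB kinase complex, the inhibitor is degraded, and dimers of Rela or Rel with the product of Nfkb1 enter the nucleus. In the noncanonical pathway, receptors such as the lymphotoxin beta and BAFF receptors act through the kinase encoded by Map3k14, the Nfkb2 precursor is processed, and its product works with Relb. Many inhibitors are themselves target genes, which makes them feedback regulators, and in the colon the pathway is known for its part in inflammation and in tumours that arise from it. APX3330 inhibits the redox function of APE1/Ref-1, encoded by Apex1, which keeps a cysteine in the DNA-binding part of NF-kB proteins reduced. RNA counts measure neither that redox state nor the position of the proteins in the cell.

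NF-kB binds short κB motifs, and matches to that motif are shown because most of these genes have one near a start site. RefSeq promoter entries (build GRCm38.p6, 250 bases before to 50 after a start site) were at hand for 7 of the 10 genes, in 10 entries, and none was at hand for Nfkb1, Relb and Nfkbiz. They were searched on both strands, overlaps allowed, for the κB consensus of 10 bases, which is GGG, a purine, any base, A or T, 2 pyrimidines and CC. Capitals mark the matches, and sequences read 5′ to 3′ on the strand of the gene.

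Nfkbie, upstream of the start (chr17:45555450-45555699, plus strand): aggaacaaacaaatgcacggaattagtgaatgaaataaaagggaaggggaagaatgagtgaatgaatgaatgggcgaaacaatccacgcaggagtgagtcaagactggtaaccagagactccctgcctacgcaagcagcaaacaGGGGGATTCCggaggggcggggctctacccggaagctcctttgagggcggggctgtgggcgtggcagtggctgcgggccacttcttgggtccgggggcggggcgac
Rel, upstream of the start (chr11:23770970-23771219, minus strand): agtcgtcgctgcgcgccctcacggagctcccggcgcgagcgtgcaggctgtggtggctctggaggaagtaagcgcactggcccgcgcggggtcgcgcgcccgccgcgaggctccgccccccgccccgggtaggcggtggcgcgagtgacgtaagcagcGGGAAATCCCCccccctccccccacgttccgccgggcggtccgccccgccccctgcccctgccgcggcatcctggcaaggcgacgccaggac
Nfkb2, first start, upstream match (chr19:46304688-46304717, plus strand): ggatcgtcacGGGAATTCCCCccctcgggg
Nfkb2, first start, match next to the start (chr19:46304716-46304745, plus strand): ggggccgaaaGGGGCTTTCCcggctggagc
Nfkb2, between later starts (chr19:46305695-46305724, plus strand): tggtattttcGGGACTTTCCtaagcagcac
Nfkbia (chr12:55492657-55492686, minus strand): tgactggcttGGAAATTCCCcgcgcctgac
Bcl3 (chr7:19822734-19822763, minus strand): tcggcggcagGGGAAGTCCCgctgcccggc
Tnfaip3, upstream of the start (chr10:19015411-19015547, minus strand): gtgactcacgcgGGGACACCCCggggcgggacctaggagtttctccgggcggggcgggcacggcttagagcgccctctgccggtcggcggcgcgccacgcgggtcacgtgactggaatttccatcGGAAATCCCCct

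The match of Nfkbie begins 106 bases before the start site, and Rel has a pair of overlapping matches that begin 92 and 91 bases before it. In Tnfaip3 the matches begin 125 and 12 bases before the start. The first Nfkb2 start has 3 matches, at 39, 38 and 11 bases before it, in sequence that GENCODE M21 also places in the first exon of a longer Nfkb2 transcript. The κB consensus was found in 6 of the 7 genes and in 8 of the 10 entries, against 5.14% of 27025 genes and 4.51% of 32851 promoters of the same length. Rela was the 1 gene without a match, and a second Tnfaip3 start had none. Of the other pathway lists described below, 8 of 15 target genes (53.3%), 5 of 11 other inhibitors (45.5%), 3 of 15 adaptors and kinases (20%), 2 of 7 receptors and 1 of 8 ligands had a match among those with an entry. The looser form GGGNNNNNCC was found in all 7 genes, but also in 53.5% of all genes. The genes were listed as parts of the pathway, and many of its inhibitors are known targets, so these shares are descriptions and not a test. A match is a run of letters and was not shown to be bound in these samples.

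Library totals ranged from 13548661 to 17919613 counts, and the lowest count of any of the 10 genes in a library was 88, for Nfkbie. Markers of epithelium (7 genes) and of colonocytes (6 genes) were present in every group, with no gene at 0 throughout a group, as the label colon requires. Some libraries also held transcripts of other tissues. The summed level of 9 genes of the exocrine pancreas was 40700 CPM in saline D48 replicate 2, 9790 CPM in saline D48 replicate 3 and no more than 12.0 CPM in any other library. The summed level of 8 genes of squamous epithelium was 851 CPM in saline D100 replicate 1, 1230 and 581 CPM in Control replicates 1 and 3, 100 CPM in saline D48 replicate 2, and at most 7.96 CPM elsewhere. Where leaving out these libraries ended a call of a named gene or moved a count by over 1.5 times, the value without them is given; for the pathway and marker lists these fits were added after the data were seen. The squamous libraries left out were Control replicates 1 and 3 and saline D100 replicate 1, and saline D48 replicate 2 stayed in. The pancreatic libraries left out were saline D48 replicates 2 and 3. Each such fit leaves 1 library in the saline D48 or Control group, which is assumed to vary like the other groups. CPM (counts scaled to a common library size) were computed with TMM factors.

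Per kilobase of exon, Nfkbia was the most abundant of the 10 genes and Rel and Nfkbie the least in all 5 groups. In RPKM (CPM per kilobase of GENCODE M21 exon sequence) Nfkbia averaged 46.5 ± 1.67 in APX3330 and 65.3 ± 18.6 in Control (SD, n = 3 each). Rel averaged 2.36 ± 0.565 RPKM in APX3330 and 1.89 ± 0.564 RPKM in Control. Among the 5 subunits Rela had the highest RPKM in each group, with 38.8% ± 1.85 of their summed RPKM in APX3330, 35.4% ± 0.558, 34.3% ± 2.55 and 38.3% ± 0.822 at saline D27, D48 and D100, and 36.3% ± 3.39 in Control. Relb made up 22.2% ± 1.02 in APX3330, 24.0% ± 1.93, 22.9% ± 0.985 and 20.3% ± 1.24 at saline D27, D48 and D100, and 27.6% ± 2.08 in Control. Rel held 4.07% ± 1.15 in APX3330 and 5.34% to 5.65% on average in the saline groups, against 2.99% ± 0.896 in Control. By RPKM, Rela was thus the largest and Rel the smallest share in each of the 5 groups. The place of Rela depends on the length used, which joins all annotated exons of a gene (12061 bases for Nfkb1 and 3072 for Rela). In CPM, Nfkb1 stood above Rela in each group, with means of 109 and 70.5 CPM in Control. The lengths of the transcripts present in these samples were not tested.

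**Figure D1:**
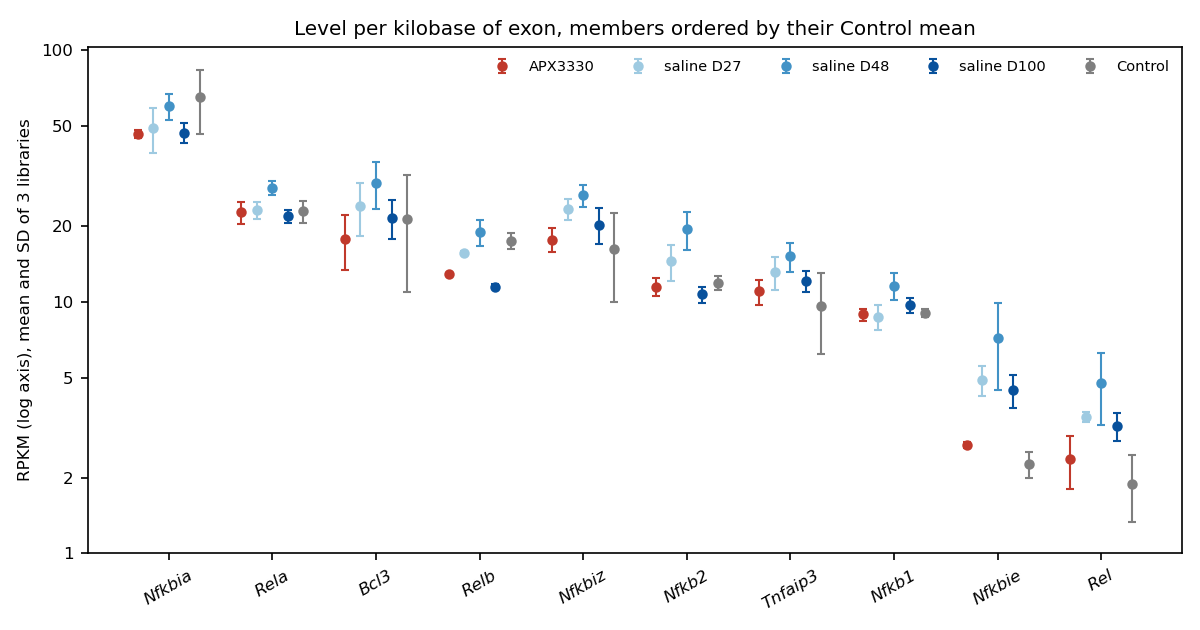
Mean level of each of the 10 genes in RPKM on a log axis, with bars for the SD of 3 libraries, in APX3330, saline D27, saline D48, saline D100 and Control. Nfkbia stands highest in all groups (65.3 RPKM in Control) and Nfkbie and Rel lowest (2.26 and 1.89 RPKM in Control).

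Saline D48 had the highest mean of 9 of the 10 genes, and Nfkbia alone was highest in Control. The ratio of the highest to the lowest group mean was 3.17 for Nfkbie and 2.51 for Rel, and between 1.30 (Rela) and 1.81 (Nfkb2) for the other 8 genes. In an F test over the 5 groups (edgeR's quasi-likelihood test, Benjamini-Hochberg adjusted over all genes tested, called below 0.05, as in every test here), 7 of the 10 genes were called, against 37.3% of all genes tested. These were all 5 subunits and, among the inhibitors, Nfkbie and Nfkbiz. Relb had the smallest adjusted p, at 1.46e-04, followed by Nfkbie at 3.67e-04 and Nfkb2 at 8.16e-04. Tnfaip3 (adjusted p = 0.0682), Nfkbia (0.0875) and Bcl3 (0.239) were not called. When the groups were ordered by their means for each gene, none of the 40 pairs of neighbouring groups was called, so calls came from groups further apart in that order. Without saline D48 replicate 3 the F test called 4 of the 10 genes, and without both libraries holding pancreatic transcripts it also called 4. Since the labels do not state whether each library is a separate animal, p-values refer to the spread between these libraries.

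**Figure D2:**
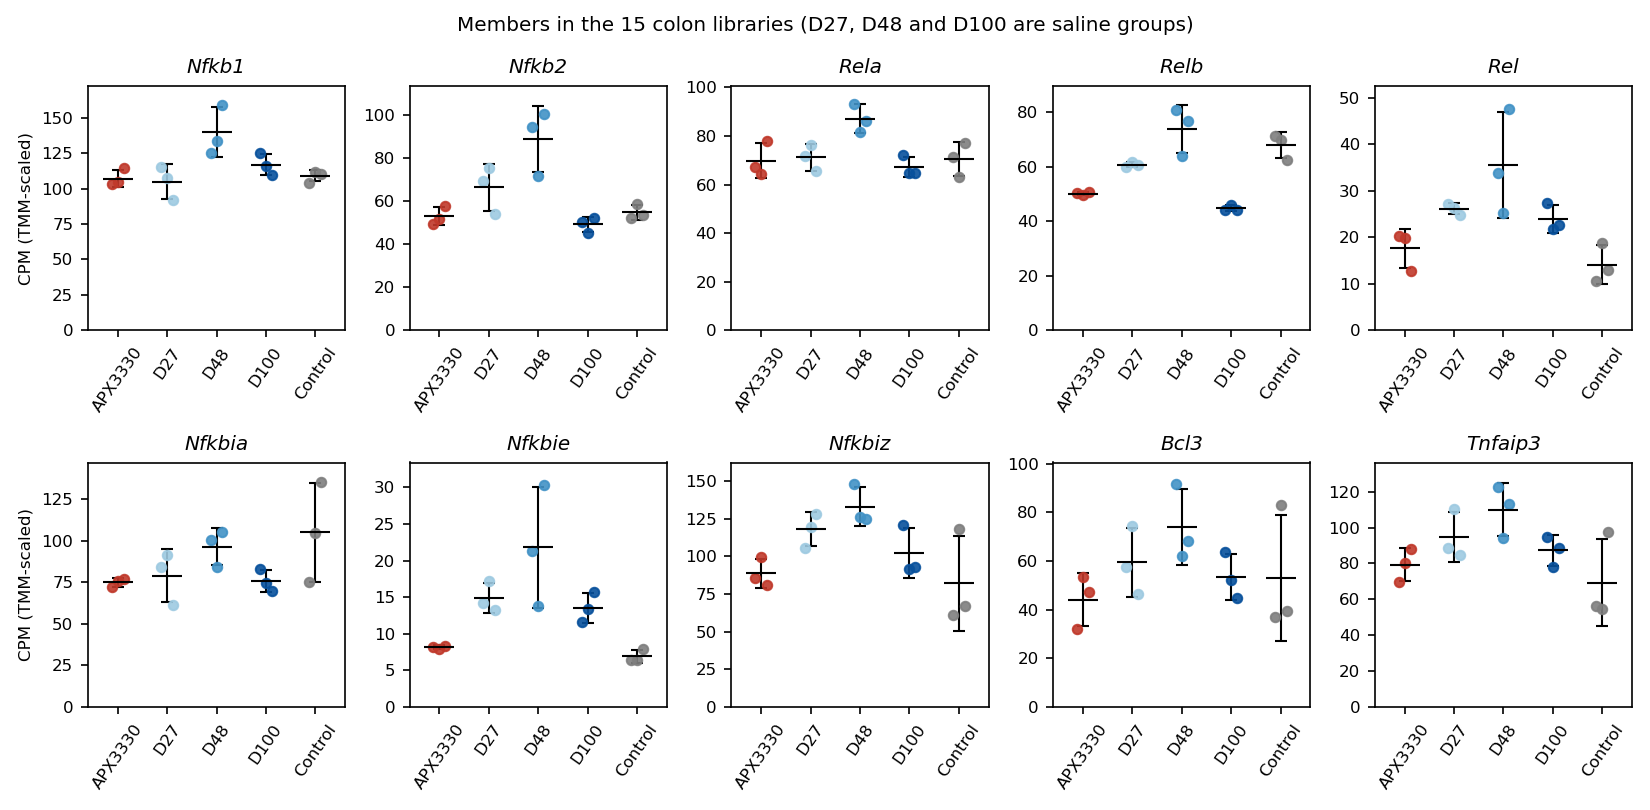
CPM of each gene in each library (points), with the mean and SD of the 3 libraries (bars), for APX3330, saline D27, saline D48, saline D100 and Control. Relb and Nfkbie have tight APX3330 points (49.8 to 50.6 and 7.93 to 8.37 CPM) below all points of saline D27 and saline D48.

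APX3330 was compared with each saline group and with Control to ask how these genes differed in treated colons. Against saline D48, 7 of the 10 fell and none rose, where 10.3% of all genes tested fell and 9.41% rose. The 7 were all 5 subunits, Nfkbie and Nfkbiz, and the median log2 fold change over the 10 genes was -0.57, against -0.01 over all genes. Without APX3330 replicate 1, without replicate 2 or without saline D48 replicate 3 the count was 4, and without the pancreatic libraries it was 3. Colon tissue was sequenced in bulk, so fewer cells of a type and less RNA per cell cannot be told apart. Against saline D27, Nfkbie fell and no gene rose, where 4.37% of all genes fell and 4.71% rose, with a median over the 10 genes of -0.30. Without saline D27 replicate 3 the count was 2, and without any other 1 of the 6 libraries it was 0. With no filter on low counts it was 3, and DESeq2 called 2. None of the 10 was called against saline D100, where 0.200% of all genes fell and 0.305% rose. There, 1 gene (Nfkbie) had an unadjusted p below 0.05, and DESeq2 called 0. The 10 fold changes against saline D100 ran from -0.73 ± 0.229 (SE) for Nfkbie to 0.16 ± 0.0891 for Relb on the log2 scale. Against Control, Relb fell and no gene rose, where 8.18% of all genes fell and 7.16% rose, with a median over the 10 genes of -0.02. The count was 2 without Control replicate 1, replicate 2 or replicate 3, and 0 without the squamous libraries, and it was 2 with no filter and 2 with DESeq2. These 4 comparisons share the APX3330 libraries and are not independent of each other.

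The saline groups were compared with Control and with each other to follow the genes through the model. At D48, 7 of the 10 genes rose and none fell, where 14.3% of all genes rose and 13.0% fell, and the median over the 10 genes was 0.57. These 7 were Nfkb1, Nfkb2, Rela, Rel, Nfkbie, Nfkbiz and Tnfaip3. The count was 4 without saline D48 replicate 1, 3 without Control replicate 1, 3 without the pancreatic and 2 without the squamous libraries. At D27, 2 genes rose (Rel and Nfkbie) and none fell, against 10.2% and 9.36% of all genes, and the count was 1 without saline D27 replicate 1 or replicate 2, 0 without the squamous libraries and 5 with no filter. At D100 the same pair rose and Relb fell, against 11.4% and 10.5% of all genes, and the count of 3 was 1 without the squamous libraries. Between D48 and D27 no gene was called, where 0.854% of all genes rose and 0.499% fell. Of the 10, 5 had an unadjusted p below 0.05, and DESeq2 called 1, as did the fit without saline D48 replicate 1, and 2 were called with no filter. At D100 against D27 Relb alone fell and none rose, where 1.45% fell and 1.63% rose. That count was 2 with no filter, with DESeq2 and without saline D27 replicate 3, and 0 without any other 1 of the 6 libraries or without the squamous libraries. At D100 against D48, 3 genes fell (Nfkb2, Rela and Relb) and none rose, where 6.40% fell and 7.20% rose, while 5 were called without saline D48 replicate 2 and 7 with no filter. The comparisons with Control share its 3 libraries, and the saline D48 libraries enter both the rise against Control and the fall in APX3330 and at D100.

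**Figure D3:**
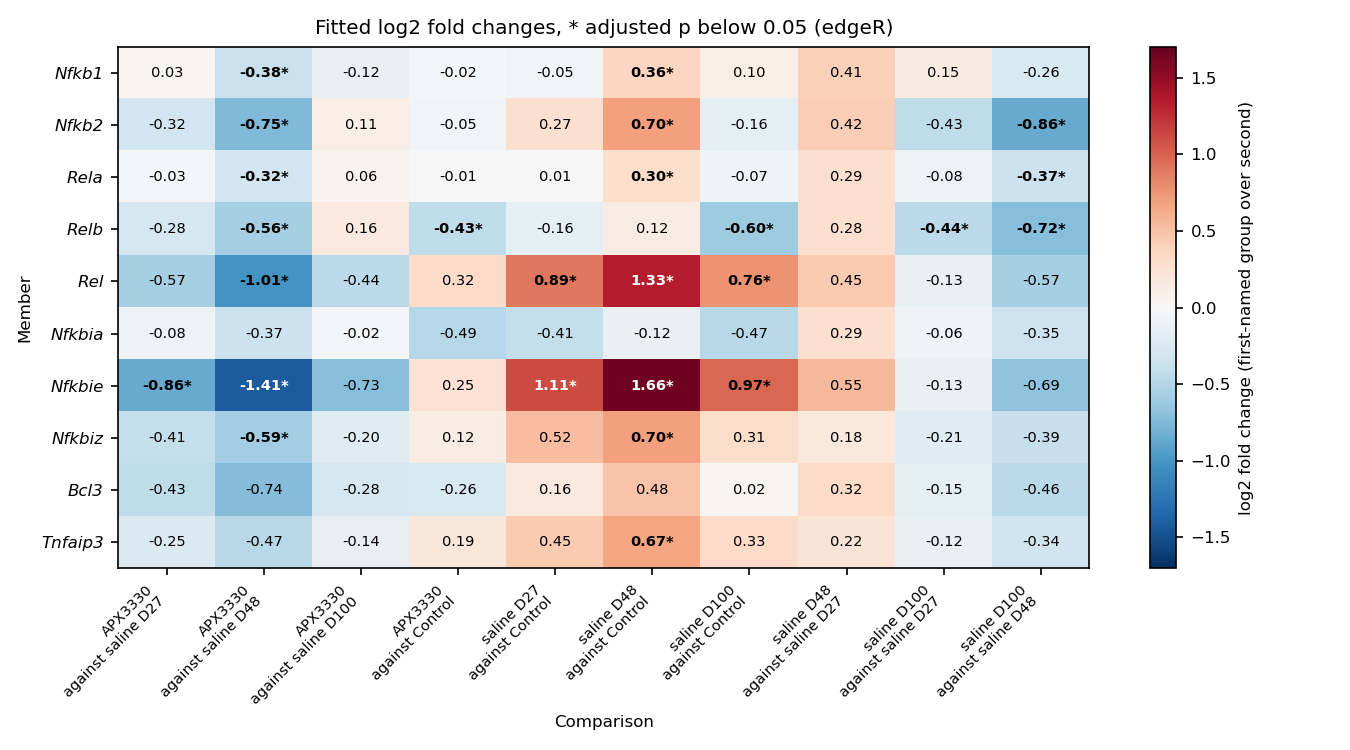
Fitted log2 fold change of each gene (rows) in the 10 comparisons (columns, first-named group over second), with an asterisk where the adjusted p of edgeR was below 0.05. Asterisks gather in APX3330 against saline D48 and in saline D48 against Control, with 7 each, and the columns of APX3330 against saline D100 and of D48 against D27 have none.

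Relb (chromosome 7, 19606217 to 19629438, minus strand, GRCm38, as are all coordinates of genes here) encodes the noncanonical partner of the Nfkb2 product, and its spread within groups was small. It stood at 50.3, 49.8 and 50.6 CPM in APX3330, 60.0, 61.7 and 60.8 CPM in saline D27, 80.8, 64.1 and 76.9 CPM in saline D48, 44.1, 46.2 and 44.3 CPM in saline D100, and 71.5, 69.7 and 62.5 CPM in Control. The APX3330 libraries lay below every saline D27, saline D48 and Control library and above every saline D100 library, and only saline D48 and Control overlapped. Relb fell in APX3330 against saline D48, with a log2 fold change of -0.56 ± 0.0884 (adjusted p = 8.26e-04, with its SE, as for all changes below). It also fell in APX3330 against Control, with a log2 fold change of -0.43 ± 0.0885 (adjusted p = 0.00427). Against saline D27 the APX3330 value was -0.28 ± 0.0884 (adjusted p = 0.0614) and against saline D100 it was 0.16 ± 0.0891 (adjusted p = 0.459). Saline D100 held the lowest levels. Relb fell there, with log2 fold changes of -0.60 ± 0.0889 against Control (adjusted p = 2.75e-04), -0.72 ± 0.0888 against saline D48 (adjusted p = 2.52e-04) and -0.44 ± 0.0888 against saline D27 (adjusted p = 0.0209). Saline D48 did not differ from Control by a call (0.12 ± 0.0877, adjusted p = 0.322). The call of D100 against D27 was lost without saline D100 replicate 1 (-0.43, adjusted p = 0.0612), replicate 2 (-0.46, 0.0544) or replicate 3 (-0.43, 0.0840), and without saline D27 replicate 1 (-0.45, 0.0766) or replicate 2 (-0.43, 0.0718). Without the libraries holding squamous transcripts the values were -0.43 for D100 against D27 (adjusted p = 0.107) and -0.48 for APX3330 against Control (adjusted p = 0.0951).

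Nfkb2 (chromosome 19, 46304320 to 46312385, plus strand) encodes the precursor whose processing defines the noncanonical pathway. Its level was 49.5, 51.5 and 57.6 CPM in APX3330, 69.4, 75.3 and 54.1 CPM in saline D27, 94.3, 71.7 and 101 CPM in saline D48, 50.02, 45.2 and 52.1 CPM in saline D100, and 52.1, 58.8 and 53.4 CPM in Control. All saline D48 libraries lay above all APX3330, saline D100 and Control libraries, and they overlapped with saline D27. Nfkb2 fell in APX3330 against saline D48, with a log2 fold change of -0.75 ± 0.133 (adjusted p = 0.00160) and at D100 against D48, with a log2 fold change of -0.86 ± 0.134 (adjusted p = 0.00113). In saline D48 it rose against Control by 0.70 ± 0.133 (adjusted p = 0.00140), and this call was lost without the libraries holding squamous transcripts (0.58, adjusted p = 0.117). APX3330 and Control differed by -0.05 ± 0.134 (adjusted p = 0.844). Nfkb2 shares 830 exonic bases with genes on the other strand, among them Psd, which had 39.0 to 65.2 CPM. The use of strand in counting is not given in the sources used here, so reads of these genes cannot be told apart in the shared bases.

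Rel (chromosome 11, 23736847 to 23770970, minus strand) encodes c-Rel, a subunit best known from lymphocytes and other blood cells. It had 20.2, 19.9 and 12.7 CPM in APX3330, 27.2, 26.2 and 24.8 CPM in saline D27, 33.7, 25.2 and 47.6 CPM in saline D48, 27.3, 21.7 and 22.7 CPM in saline D100, and 10.5, 18.8 and 13.0 CPM in Control. Every APX3330 library lay below every saline library, APX3330 overlapped with Control, and the 3 saline groups overlapped with one another. Rel fell in APX3330 against saline D48, with a log2 fold change of -1.01 ± 0.237 (adjusted p = 0.00823). The differences from saline D27 (-0.57 ± 0.237, adjusted p = 0.137) and from saline D100 (-0.44 ± 0.238, adjusted p = 0.450) were not called. In the saline groups Rel rose against Control by 0.89 ± 0.239 at D27 (adjusted p = 0.0177), by 1.33 ± 0.240 at D48 (adjusted p = 9.32e-04) and by 0.76 ± 0.240 at D100 (adjusted p = 0.0331). In APX3330 its difference from Control was 0.32 ± 0.241 (adjusted p = 0.406).

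Several of the Rel calls depended on single libraries. At D27 the call was lost without saline D27 replicate 1 (0.86, adjusted p = 0.0539) or replicate 2 (0.88, 0.0554), and without Control replicate 1 (0.72, 0.0842) or replicate 3 (0.83, 0.0655). At D100 the Rel call was lost without saline D100 replicate 1 (0.66, adjusted p = 0.103), replicate 2 (0.83, 0.0529) or replicate 3 (0.80, 0.0650), and without Control replicate 1 (0.59, 0.148) or replicate 3 (0.70, 0.107). Without both Control libraries and the saline D100 library that hold squamous transcripts, Rel was at 0.46 at D27 (adjusted p = 0.458), 0.90 at D48 (0.108) and 0.23 at D100 (0.760). The fall in APX3330 against saline D48 was -0.94 without the libraries holding pancreatic transcripts (adjusted p = 0.0670).

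Rela (chromosome 19, 5637483 to 5648130, plus strand) encodes the main activating subunit of the canonical dimer. It varied least of the 10 genes. Rela had 67.3, 64.3 and 77.9 CPM in APX3330, 71.7, 76.4 and 65.4 CPM in saline D27, 93.3, 81.7 and 86.2 CPM in saline D48, 72.0, 64.7 and 64.8 CPM in saline D100, and 71.3, 63.2 and 77.0 CPM in Control. All 3 saline D48 libraries lay above all 12 others, which overlapped with each other. Rela fell in APX3330 against saline D48, with a log2 fold change of -0.32 ± 0.0996 (adjusted p = 0.0352) and at D100 against D48, with a log2 fold change of -0.37 ± 0.0998 (adjusted p = 0.0220), and it rose in saline D48 against Control by 0.30 ± 0.0996 (adjusted p = 0.0332). These small changes were not called under many alternatives. With no filter on low counts the adjusted p was 0.0632 for APX3330 against saline D48 and 0.0600 for saline D48 against Control. The fall in APX3330 was lost without APX3330 replicate 1 (-0.29, adjusted p = 0.0904) or replicate 2 (-0.26, 0.142), without saline D48 replicate 1 (-0.25, 0.144) or replicate 3 (-0.32, 0.0825), and without the libraries with pancreatic transcripts (-0.42, 0.118). The rise at D48 was lost without saline D48 replicate 1 (0.23, adjusted p = 0.157) or replicate 3 (0.31, 0.0717), without Control replicate 1 (0.32, 0.0703) or replicate 2 (0.23, 0.138), without the pancreatic (0.41, 0.0994) and without the squamous libraries (0.44, 0.0891). The fall at D100 against D48 was lost without saline D100 replicate 2 (-0.35, adjusted p = 0.0822) or replicate 3 (-0.35, 0.0827), without saline D48 replicate 1 (-0.32, 0.0869) and without the pancreatic libraries (-0.48, 0.0891).

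Nfkb1 (chromosome 3, 135584655 to 135691547, minus strand) encodes the precursor of the DNA-binding partner of Rela and Rel. Its level was 104, 105 and 114 CPM in APX3330, 116, 108 and 91.7 CPM in saline D27, 125, 134 and 159 CPM in saline D48, 125, 116 and 110 CPM in saline D100, and 104, 112 and 111 CPM in Control. Saline D48 lay above all libraries of the other groups, though its lowest library (125.3 CPM) was only just above the highest of saline D100 (125.0 CPM). Nfkb1 fell in APX3330 against saline D48, with a log2 fold change of -0.38 ± 0.104 (adjusted p = 0.0197) and rose in saline D48 against Control by 0.36 ± 0.104 (adjusted p = 0.0178). The difference between D48 and D27 was 0.41 ± 0.104 (adjusted p = 0.0646). The fall in APX3330 was lost without APX3330 replicate 1 (-0.35, adjusted p = 0.0541) or replicate 2 (-0.36, 0.0690), without saline D48 replicate 3 (-0.27, 0.104) and without the pancreatic libraries (-0.22, 0.402). The rise at D48 was lost without saline D48 replicate 3 (0.25, adjusted p = 0.101), without Control replicate 1 (0.34, 0.0646), without the pancreatic (0.21, 0.392) and without the squamous libraries (0.31, 0.275).

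Nfkbie (chromosome 17, 45555703 to 45563169, plus strand) encodes IkB epsilon, a cytoplasmic inhibitor that acts on dimers with Rela or Rel. It changed most among the 10 genes. Nfkbie stood at 8.24, 7.93 and 8.37 CPM in APX3330, 14.2, 17.1 and 13.3 CPM in saline D27, 21.3, 13.8 and 30.3 CPM in saline D48, 11.7, 13.3 and 15.7 CPM in saline D100, and 6.37, 6.43 and 7.86 CPM in Control. Every APX3330 library lay below every saline library and just above every Control library. Nfkbie fell in APX3330, with a log2 fold change of -1.41 ± 0.228 against saline D48 (adjusted p = 9.27e-04) and of -0.86 ± 0.228 against saline D27 (adjusted p = 0.0302), while against saline D100 the difference was -0.73 ± 0.229 (adjusted p = 0.178). In the saline groups it rose against Control by 1.11 ± 0.230 at D27 (adjusted p = 0.00420), 1.66 ± 0.231 at D48 (adjusted p = 1.63e-04) and 0.97 ± 0.231 at D100 (adjusted p = 0.00710). APX3330 and Control differed by 0.25 ± 0.233 (adjusted p = 0.515). The fall against saline D27 was lost without APX3330 replicate 1 (-0.87, adjusted p = 0.0537), replicate 2 (-0.84, 0.0992) or replicate 3 (-0.88, 0.0842), and without saline D27 replicate 1 (-0.89, 0.0793) or replicate 2 (-0.75, 0.121). Without the squamous libraries Nfkbie was at 1.19 at D27 (adjusted p = 0.103) and 1.16 at D100 (0.106) against Control.

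Nfkbia (chromosome 12, 55489410 to 55492647, minus strand) encodes IkB alpha, the classical inhibitor that is degraded on activation and made again as a target of NF-kB. None of the 10 comparisons called it. Its level was 71.9, 75.8 and 77.0 CPM in APX3330, 84.3, 91.5 and 61.2 CPM in saline D27, 100, 83.9 and 105 CPM in saline D48, 83.2, 74.5 and 69.8 CPM in saline D100, and 75.2, 105 and 135 CPM in Control. The Control libraries spread from within the range of the other groups to above it. The value in APX3330 was -0.37 ± 0.176 against saline D48 (adjusted p = 0.160) and -0.49 ± 0.176 against Control (adjusted p = 0.0740).

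Nfkbiz (chromosome 16, 55811375 to 55838899, minus strand) encodes IkB zeta, a nuclear protein of the IkB family that works with the Nfkb1 product at a subset of inflammatory genes. It had 85.7, 99.4 and 80.9 CPM in APX3330, 105, 119 and 128 CPM in saline D27, 148, 126 and 125 CPM in saline D48, 121, 91.3 and 92.9 CPM in saline D100, and 60.9, 118 and 66.6 CPM in Control. APX3330 lay below saline D27 and saline D48 without overlap, and Control replicate 2 stood apart from the other two Control libraries. Nfkbiz fell in APX3330 against saline D48, with a log2 fold change of -0.59 ± 0.195 (adjusted p = 0.0456). It rose in saline D48 against Control by 0.70 ± 0.196 (adjusted p = 0.0146). The fall was lost when any 1 of the 6 libraries was left out. The values were -0.56 without APX3330 replicate 1 (adjusted p = 0.104), -0.68 without replicate 2 (0.0661), -0.52 without replicate 3 (0.137), -0.49 without saline D48 replicate 1 (0.143), -0.64 without replicate 2 (0.0613) and -0.63 without replicate 3 (0.0753). It was -0.74 without the pancreatic libraries (adjusted p = 0.138). The rise at D48 was lost without saline D48 replicate 1 (0.59, adjusted p = 0.0582), without Control replicate 1 (0.54, 0.0698) or replicate 3 (0.58, 0.0697) and without the pancreatic libraries (0.86, 0.0638), and it was 0.16 (adjusted p = 0.593) without the squamous libraries, which leaves Control replicate 2 alone.

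Bcl3 (chromosome 7, 19808462 to 19822770, minus strand) encodes a nuclear IkB protein that binds dimers of the Nfkb1 or Nfkb2 products. It was called in no comparison. Bcl3 had 32.1, 53.2 and 47.1 CPM in APX3330, 57.4, 74.4 and 46.4 CPM in saline D27, 91.6, 61.9 and 68.1 CPM in saline D48, 63.7, 52.1 and 44.9 CPM in saline D100, and 36.9, 83.0 and 39.3 CPM in Control. APX3330 lay below saline D48 without overlap, with a log2 fold change of -0.74 ± 0.280 (adjusted p = 0.0745). Control replicate 2, as for Nfkbiz, stood above replicates 1 and 3, the pair with squamous transcripts, and the part of those transcripts in this spread was not tested. Bcl3 shares 161 exonic bases with Gm16175 on the other strand, which had at most 0.989 CPM.

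Tnfaip3 (chromosome 10, 19000910 to 19015657, minus strand) encodes A20, a ubiquitin-editing enzyme that shuts off signalling to NF-kB. Its level was 69.9, 80.1 and 87.8 CPM in APX3330, 88.4, 111 and 84.6 CPM in saline D27, 123, 94.0 and 113 CPM in saline D48, 94.7, 78.0 and 88.8 CPM in saline D100, and 56.0, 54.5 and 97.5 CPM in Control. Control replicate 3 lay within the saline D48 range and the other two Control libraries below all others. Tnfaip3 rose in saline D48 against Control by 0.67 ± 0.188 (adjusted p = 0.0157). The difference of APX3330 from saline D48 was -0.47 ± 0.187 (adjusted p = 0.0897). The rise was lost without saline D48 replicate 1 (0.55, adjusted p = 0.0666), without Control replicate 1 (0.54, 0.0777) or replicate 2 (0.52, 0.0725), and without the pancreatic libraries (0.83, 0.0592).

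Other genes of the pathway were read by their role. Their counts stand beside the shares over all genes tested. In APX3330 against saline D48, 9.41% of all genes rose and 10.3% fell. In saline D48 against Control, 14.3% rose and 13.0% fell. Of 9 ligands, 7 fell and none rose in APX3330 against saline D48, with a median log2 fold change of -1.91, and 8 rose and none fell in saline D48 against Control, with a median of 2.22. The medians over all genes in these comparisons were -0.01 and 0.00. Il1b, which encodes the cytokine IL-1 beta, had 1.55, 3.00 and 2.75 CPM in APX3330, 7.08, 3.31 and 8.81 CPM in saline D27, 46.0, 10.9 and 18.1 CPM in saline D48, 9.26, 7.95 and 6.62 CPM in saline D100, and 0.901, 1.68 and 1.07 CPM in Control. It fell in APX3330 against saline D48, with a log2 fold change of -3.35 ± 0.487 (adjusted p = 4.99e-04), where the groups did not overlap. Il1a, Tnfsf11 (RANK ligand) and Tnfsf13b (BAFF, a survival factor of B cells) fell as well, with log2 fold changes of -2.36, -2.46 and -0.86. Il1a had at most 2.25 CPM in any library, so its fold rests on few counts. The count of ligands that fell was 4 without APX3330 replicate 3 or without saline D48 replicate 3, and 1 without the pancreatic libraries, when Il1a (-2.92, adjusted p = 0.121), Tnfsf11 (-2.28, 0.0761) and Tnfsf13b (-0.38, 0.382) were not called. The call of Il1a was also lost without APX3330 replicate 2 (-2.02, adjusted p = 0.112) or replicate 3 (-2.47, 0.0703), and without saline D48 replicate 1 (-1.97, 0.116) or replicate 3 (-2.48, 0.0580). In saline D48 against Control, 3 ligands rose without the pancreatic and 3 without the squamous libraries.

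Receptors moved less. Of 9, 4 fell and none rose in APX3330 against saline D48, and 4 rose and none fell in saline D48 against Control. Tnfrsf1b, a TNF receptor, fell in APX3330 against saline D48, with a log2 fold change of -0.90 ± 0.177 (adjusted p = 0.00292), and Tnfrsf1a, the other TNF receptor, fell, with a log2 fold change of -0.54 ± 0.0892 (adjusted p = 0.00109). Tlr2, a receptor for bacterial lipoproteins, fell with a log2 fold change of -0.52 and Tnfrsf13c, the BAFF receptor of B cells, with one of -1.84. Tnfrsf1a also fell in APX3330 against Control, with a log2 fold change of -0.38 ± 0.0893 (adjusted p = 0.0102), and against saline D27, with a log2 fold change of -0.36 ± 0.0892 (adjusted p = 0.0235). In APX3330 against saline D48 the count was 2 without APX3330 replicate 3 or without saline D48 replicate 3, and in saline D48 against Control it was 2 without saline D48 replicate 3, 2 without the pancreatic and 1 without the squamous libraries. The call of Tlr2 was lost without APX3330 replicate 2 (-0.44, adjusted p = 0.149) or replicate 3 (-0.39, 0.157), without saline D48 replicate 2 (-0.42, 0.140) or replicate 3 (-0.51, 0.0948), and without the pancreatic libraries (-0.27, 0.578). The call of Tnfrsf13c was lost without APX3330 replicate 3 (-1.71, adjusted p = 0.0515) or saline D48 replicate 3 (-1.06, 0.0885). Tnfrsf1a was not called against Control without the squamous libraries (-0.39, adjusted p = 0.155). Against saline D27 its call was lost without APX3330 replicate 2 (-0.37, adjusted p = 0.0678) or replicate 3 (-0.33, 0.0810), and without saline D27 replicate 1 (-0.37, 0.0690) or replicate 2 (-0.28, 0.104).

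The 19 adaptors and kinases did not move one way. In APX3330 against saline D48, 3 rose and 4 fell, where 9.41% of all genes rose and 10.3% fell. In saline D48 against Control, 8 rose and 3 fell, where 14.3% of all genes rose and 13.0% fell. For a list of 19 the 3 that fell at D48 are near that share. Chuk, the IkB kinase alpha gene, had 89.4, 91.9 and 87.3 CPM in APX3330, 73.7, 73.3 and 81.9 CPM in saline D27, 58.1, 59.0 and 61.8 CPM in saline D48, 88.7, 90.9 and 92.7 CPM in saline D100, and 81.9, 87.0 and 76.4 CPM in Control. The saline D48 libraries were the lowest 3 of the 15. Chuk rose in APX3330 against saline D48 by 0.59 ± 0.0753 (adjusted p = 2.17e-04) and fell in saline D48 against Control, with a log2 fold change of -0.45 ± 0.0753 (adjusted p = 5.36e-04). Ikbkb, the IkB kinase beta gene, fell in APX3330 against saline D48, with a log2 fold change of -0.27 ± 0.0873 (adjusted p = 0.0421) and rose in saline D48 against Control by 0.50 ± 0.0877 (adjusted p = 7.58e-04). Map3k14, the noncanonical kinase NIK, had 14.7, 14.7 and 15.1 CPM in APX3330, 31.5, 19.99 and 28.9 CPM in saline D48, and 13.8, 10.7 and 9.79 CPM in Control. It fell in APX3330 against saline D48, with a log2 fold change of -0.85 ± 0.190 (adjusted p = 0.00632) and rose in saline D48 against Control by 1.23 ± 0.193 (adjusted p = 3.77e-04). Ikbke, a related kinase, rose against Control in all 4 other groups, by 0.56 in APX3330 and by 0.63, 0.71 and 0.75 at D27, D48 and D100. Without the squamous libraries none of these calls of Ikbke held (0.38 in APX3330, adjusted p = 0.237, and 0.44, 0.51 and 0.54 at D27, D48 and D100, adjusted p = 0.141, 0.0629 and 0.0721). The fall of Ikbkb in APX3330 was lost with no filter (adjusted p = 0.135), without APX3330 replicate 1 (-0.22, 0.125), replicate 2 (-0.29, 0.0717) or replicate 3 (-0.29, 0.0634), without saline D48 replicate 1 (-0.27, 0.0830) or replicate 3 (-0.18, 0.201), and without the pancreatic libraries (-0.23, 0.302). Its rise at D48 was lost without the squamous libraries (0.38, adjusted p = 0.119). In APX3330 against saline D48 the list's counts became 2 up and 1 down without APX3330 replicate 2 or saline D48 replicate 3, 2 and 2 without saline D48 replicate 1 or with no filter, and 1 and 1 without the pancreatic libraries. In saline D48 against Control they became 6 up and 1 down without Control replicate 1 or saline D48 replicate 3, 4 and 1 without the pancreatic, and 1 and 1 without the squamous libraries.

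Among 12 other inhibitors of the pathway, 1 rose and 1 fell in APX3330 against saline D48, and 5 rose and 2 fell in saline D48 against Control. For a list of 12 the first pair of counts and the 2 that fell are near the shares over all genes given above. Tax1bp1, an adaptor through which A20 acts, had 744, 668 and 635 CPM in APX3330, 415, 434 and 414 CPM in saline D48, and 657, 779 and 703 CPM in Control. It rose in APX3330 against saline D48 by 0.70 ± 0.110 (adjusted p = 8.14e-04) and fell in saline D48 against Control, with a log2 fold change of -0.76 ± 0.110 (adjusted p = 2.13e-04). Zc3h12a, an RNase that degrades inflammatory transcripts, fell in APX3330 against saline D48, with a log2 fold change of -0.75 ± 0.199 (adjusted p = 0.0167). A pair of A20-binding proteins moved in opposite directions against Control. Tnip3 rose by 0.90 in APX3330 and by 1.45, 1.15 and 1.43 at D27, D48 and D100, and Tnip1 fell, with log2 fold changes of -0.69 in APX3330 and of -0.54, -0.42 and -0.87 at D27, D48 and D100. The call of Zc3h12a was lost without APX3330 replicate 3 (-0.67, adjusted p = 0.0685) or saline D48 replicate 1 (-0.53, 0.0817). In those 2 fits Tax1bp1 was the 1 gene of the list still called. Without the squamous libraries Tnip3 was at 0.54 in APX3330 (adjusted p = 0.310) and 0.78 at D48 (0.0800). The call of Tnip1 at D48 was lost without Control replicate 2 (-0.34, adjusted p = 0.0680), saline D48 replicate 3 (-0.37, 0.0646), the pancreatic (-0.26, 0.376) or the squamous libraries (-0.59, 0.0532). In saline D48 against Control the list's counts became 2 up and 2 down without Control replicate 1, 2 and 1 without saline D48 replicate 3 or the pancreatic libraries, and 0 and 1 without the squamous libraries.

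Of 20 genes listed as targets of NF-kB, 17 had enough counts to test, leaving out Il6, Bcl2a1b and Csf2. In APX3330 against saline D48, 14 fell and none rose, with a median of -1.46, and in saline D48 against Control 10 rose and none fell, with a median of 1.54. Nos2, the inducible nitric oxide synthase, had 8.31, 8.002 and 9.45 CPM in APX3330, 29.6, 27.5 and 19.7 CPM in saline D27, 86.7, 64.7 and 89.8 CPM in saline D48, 34.3, 6.54 and 11.7 CPM in saline D100, and 2.89, 5.77 and 6.12 CPM in Control. It fell in APX3330, with a log2 fold change of -3.23 ± 0.439 against saline D48 (adjusted p = 3.21e-04) and of -1.57 ± 0.426 against saline D27 (adjusted p = 0.0331). Lcn2, an antimicrobial iron-binding protein, and the adhesion genes Icam1 and Vcam1 fell in APX3330 against saline D48, with log2 fold changes of -2.95, -1.24 and -1.21. The call of Nos2 against saline D27 was lost without APX3330 replicate 1 (-1.55, adjusted p = 0.0672), replicate 2 (-1.53, 0.110) or replicate 3 (-1.65, 0.0890), and without saline D27 replicate 1 (-1.45, 0.111) or replicate 2 (-1.52, 0.101). The count of targets that fell against saline D48 was 8 without APX3330 replicate 2 or without saline D48 replicate 1, and the count that rose at D48 was 6 without the squamous libraries. In APX3330 against saline D27, 2 of the 17 fell and none rose, where 4.37% of all genes fell. In APX3330 against Control 2 fell and none rose, where 8.18% of all genes fell, and for a list of 17 that count is near that share. The counts against saline D27 were 8 with no filter, 5 with DESeq2, 1 without APX3330 replicate 3 or saline D27 replicate 2, and 0 without APX3330 replicate 2 or saline D27 replicate 1. Those against Control were 5 with no filter, 1 without APX3330 replicate 1 or replicate 2, without Control replicate 1 or without the squamous libraries, and 0 without Control replicate 2 or replicate 3. None of the 17 was called by edgeR against saline D100, where 6 had an unadjusted p below 0.05 and DESeq2 called 2. At D100 against Control 3 targets rose and 2 fell, which is near the shares over all genes in that comparison, and 2 were called without the squamous libraries. At D100 against D48, 9 targets fell and none rose, with a median of -0.85, and the count was 5 without saline D100 replicate 2 or replicate 3 and 3 without the pancreatic libraries.

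**Figure D4:**
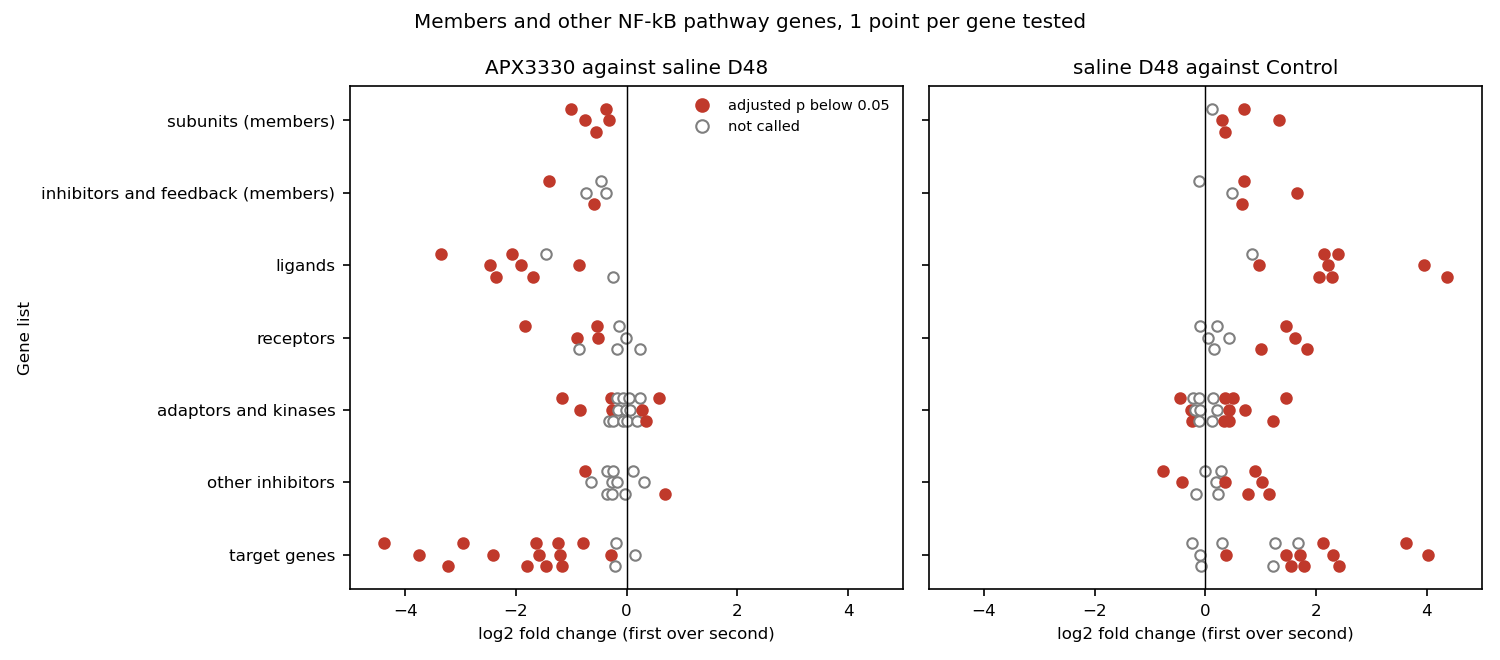
Fitted log2 fold change of each gene tested (1 point per gene, filled where the adjusted p was below 0.05) in APX3330 against saline D48 (left) and saline D48 against Control (right), by list. The 10 genes lie between -1.41 and -0.32 on the left, while ligands and target genes reach past -3 there.

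Neither redox partner of the study's question was called in APX3330 against a saline group. Apex1 had 3.31, 4.33 and 5.16 CPM in APX3330, 7.03, 6.20 and 4.34 CPM in saline D27, 4.23, 8.06 and 5.57 CPM in saline D48, 4.45, 6.41 and 5.94 CPM in saline D100, and 3.73, 4.89 and 5.66 CPM in Control. It was called in no comparison, and the groups overlapped. Its mean was 4.27 CPM in APX3330 and 5.96 CPM in saline D48. It had only 49 to 126 counts in a library, so the missing call does not show that its level was unchanged. Txn1, which encodes the thioredoxin that reduces APE1/Ref-1, had 535, 494 and 444 CPM in APX3330, 566, 579 and 528 CPM in saline D27, 490, 507 and 493 CPM in saline D48, 537, 645 and 538 CPM in saline D100, and 378, 404 and 370 CPM in Control. Txn1 rose against Control in all 4 other groups, by 0.36 ± 0.0964 in APX3330 (adjusted p = 0.0216) and by 0.54, 0.37 and 0.58 at D27, D48 and D100. Without the squamous libraries none of these calls held (0.28 in APX3330, adjusted p = 0.414, and 0.45, 0.28 and 0.54 at D27, D48 and D100, adjusted p = 0.141, 0.282 and 0.0804). The call in APX3330 was also lost without APX3330 replicate 1 (0.29, adjusted p = 0.0710) or replicate 2 (0.35, 0.0604), and without Control replicate 1 (0.35, 0.0711) or replicate 3 (0.33, 0.0764), and the call at D48 without the pancreatic libraries (0.36, 0.133). APX3330 and saline D48 differed by -0.02 ± 0.0962 (adjusted p = 0.927).

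Markers of immune cells moved with some of the 10 genes. The summed level of 7 leukocyte markers was 360, 270 and 239 CPM in APX3330, 544, 566 and 397 CPM in saline D27, 576, 397 and 1160 CPM in saline D48, 390, 382 and 466 CPM in saline D100, and 160, 189 and 186 CPM in Control. All 7 fell in APX3330 against saline D48, and all 7 rose in saline D48 against Control (4 without the squamous libraries), with no marker at 0 in any group. Saline D48 replicate 3, the library with the most Rel and Nfkbie, also had the most leukocyte and B cell markers (694 CPM over 9 B cell genes, against 228 and 91.8 CPM in replicates 1 and 2). The T cell (7 genes) and macrophage (8 genes) sums were also higher in saline D48 than in Control in each library. Macrophage markers summed to 609, 548 and 437 CPM in APX3330, 1010, 938 and 1300 CPM in saline D48, and 301, 406 and 390 CPM in Control. In APX3330 against saline D48, 8 of 9 B cell, 2 of 7 T cell, 6 of 8 macrophage and 6 of 7 tested neutrophil markers fell and none rose. The B cell count was 5, 1 and 0 without APX3330 replicate 1, 2 and 3 in turn, 0 without saline D48 replicate 3 and 4 without the pancreatic libraries. The T cell count was 0 without APX3330 replicate 2, saline D48 replicate 3 or the pancreatic libraries, 1 without APX3330 replicate 3, 5 without saline D48 replicate 2 and with DESeq2, and 6 with no filter, and the neutrophil count was 2 without the pancreatic libraries. Over the 15 libraries, which share their groups, Pearson's r of log2 CPM with the leukocyte sum was 0.95 for Nfkbie and 0.93 for Rel, and 0.86 and 0.73 after group means were removed. For Nfkb2 they were 0.67 and 0.65, and with the B cell sum 0.75 and 0.75, and for Relb they were 0.14 and 0.39 with the leukocyte sum. With that sum Tnfaip3 had 0.71 and Nfkbiz 0.66, but 0.19 and -0.03 after group means were removed. Relb ran beside the sums of 6 fibroblast markers (r = 0.86) and of 8 neutrophil markers (r = 0.77) over the 15 libraries. It did not after group means were removed (r = -0.07 and -0.03). A summed level is weighted toward the most abundant genes of its list. The neutrophil sum averaged 51.3 CPM in APX3330, 117, 150 and 63.6 CPM at saline D27, D48 and D100, and 118 CPM in Control. Most of this sum was Ly6g, which averaged 45.6 CPM in APX3330 and 114 CPM in Control. At saline D27, D48 and D100 Ly6g averaged 106, 99.0 and 51.6 CPM. In saline D48 against Control 6 of the 7 tested neutrophil markers rose and none fell, so the sum does not stand for the list. The r of Relb with the neutrophil markers other than Ly6g was not tested. The fibroblast sum was 2100, 1780 and 1800 CPM in APX3330, 2480, 2030 and 2360 CPM in saline D27, 3690, 3470 and 3230 CPM in saline D48, 2050, 1920 and 1980 CPM in saline D100, and 2970, 3510 and 3230 CPM in Control. Of the 6 fibroblast markers 4 fell in APX3330 against saline D48 and none rose. The sum of 6 colonocyte markers averaged 3670 CPM in Control, 2290 CPM in APX3330, and 2140, 1600 and 2010 CPM at saline D27, D48 and D100. In saline D48 against Control 2 of these markers had a positive and 4 a negative log2 fold change. The r of the colonocyte sum was -0.72 with Rel and -0.68 with Nfkbie, and -0.17 and 0.15 after group means were removed. Other tissue layers moved as well. The summed level of 8 smooth muscle markers was 5850, 5840 and 4470 CPM in APX3330, 7540, 8460 and 10200 CPM in saline D27, 6130, 5680 and 5130 CPM in saline D48, 6980, 6320 and 5280 CPM in saline D100, and 10600, 10500 and 10400 CPM in Control. Against Control 7 of the 8 fell in APX3330, at D48 (4 without the pancreatic libraries) and at D100 (3 without the squamous libraries), and against saline D27 7 fell in APX3330 (4 without APX3330 replicate 3 or without saline D27 replicate 3). In APX3330 against saline D48 none of the 8 was called by edgeR (0 with an unadjusted p below 0.05, and 0 called by DESeq2). Of 6 endothelium markers 5 rose in saline D48 against Control, with sums of 241, 261 and 280 CPM in saline D48 and 201, 172 and 205 CPM in Control, and none was called without the pancreatic or without the squamous libraries. The count was 3, 3 and 2 without saline D48 replicate 1, 2 and 3 in turn, and 2 and 1 without Control replicate 1 and replicate 2. In APX3330, where the sums were 258, 199 and 189 CPM, 3 of the 6 fell against saline D48, and the count was 1 without saline D48 replicate 2 and 0 without saline D48 replicate 3, APX3330 replicate 2 or 3, or the pancreatic libraries. The part of cell make-up in the results for these genes was not tested.

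**Figure D5:**
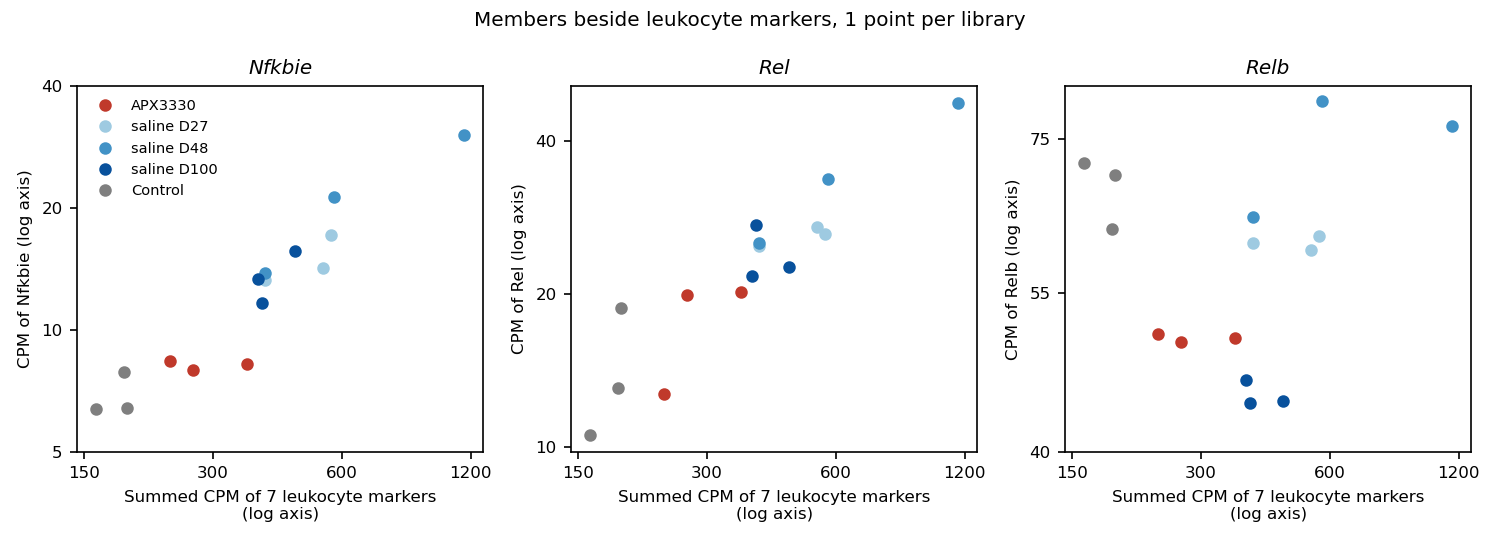
CPM of Nfkbie, Rel and Relb in each library (log axis) against the summed CPM of 7 leukocyte markers (log axis), coloured by group. Nfkbie and Rel rise along the marker sum over the 15 libraries (r = 0.95 and 0.93), and Relb does not (r = 0.14), with saline D100 and APX3330 at the bottom of its panel.

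The 10 genes did not follow a single pattern. Over their 45 pairs the median r across the 15 libraries was 0.52, from 0.03 to 0.88, and 0.35 after group means were removed, from -0.36 to 0.77. Rel and Nfkbie were the closest pair (r = 0.88), followed by Rel and Nfkbiz (0.85) and by Rela and Nfkb2 (0.81). Among 11657 genes that averaged 5 CPM or more, those most like Nfkbie over the 15 libraries were Sla (r = 0.97), Laptm5 (0.96) and Cmah (0.96). Laptm5 is also on the leukocyte list. Those most like Relb were Arl8a (0.94), Col5a3 (0.92) and Efhd2 (0.92), and those most like Nfkb2 were Rhog, Gnai2 and Tcf3 (0.94 each). Col5a3, a fibrillar collagen gene, averaged 28.8 ± 0.380 CPM in APX3330, 38.6 ± 2.72 CPM in saline D27, 54.3 ± 8.22 CPM in saline D48, 27.1 ± 1.53 CPM in saline D100 and 51.6 ± 7.81 CPM in Control, in the same order of groups as Relb. Sla, an adaptor of lymphocyte signalling, averaged 10.3 ± 0.983 CPM in APX3330, 17.4 ± 3.91 CPM in saline D27, 24.9 ± 10.6 CPM in saline D48, 14.7 ± 2.96 CPM in saline D100 and 8.52 ± 1.58 CPM in Control, in the same order as Nfkbie. The points share libraries and depth, and these values are descriptions.

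Of the 25 calls of the 10 genes, few held under every alternative run. They were Nfkb2, Relb and Nfkbie in APX3330 against saline D48, Nfkbie in saline D48 against Control, Relb in saline D100 against Control, and Nfkb2 and Relb in saline D100 against saline D48.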

How the data were processed

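Total RNA from colon was sequenced in 15 libraries. The authors deposited 1 table of whole-number counts per gene, not normalised. The builds were GRCm38 and mm10, per the submitters' processing notes. RNA came from an RNeasy kit and libraries from a SMARTER mRNA-Seq kit, per the labels' protocols. Aligner, counter and strand setting were not given in the sources used here.

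Columns were matched to samples by name. In R 4.3.3 with edgeR 4.0.16, low counts were removed with filterByExpr (18038 genes left), libraries scaled with TMM, and all 15 libraries fitted together (glmQLFit, glmQLFTest) giving 10 pairwise contrasts and 1 F test across groups, with Benjamini-Hochberg adjustment over all genes tested and calls below 0.05. Each SE is the log2 fold change divided by the root of its F. Correlations used log2 CPM with a prior count of 2. The fit was tested beforehand on simulated counts in which a known set of genes was changed. Alternatives were DESeq2 size factors, no filter, the DESeq2 1.42.0 test, the replicate number as a block, each library left out, and the libraries with squamous or pancreatic transcripts left out; for pathway and marker genes they were added after the data were seen. No 2 libraries of a group agreed within counting noise. Gene lengths and coordinates are from GENCODE M21. Python 3.11.15 with matplotlib 3.10.9 drew the figures.

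The genes, lists and markers were chosen with earlier results of these data known. Named are all 10 genes, up to 4 called genes with the smallest F-test p of each pathway list, Apex1 and Txn1, and for the 3 of the 10 with the smallest F-test p the 3 genes with the highest r among genes of at least 5 mean CPM, leaving out predicted and clone names and immunoglobulin or T cell receptor segments.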

Additional observations from a re-analysis of the deposited data

How the results depend on the processing

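Alternatives were run for the called values of the 10 genes and, added after the data were seen, for those of 22 pathway genes and for list counts. None of these called values changed direction. Of 25 called values of the 10 genes, 25 stayed called with DESeq2 size factors and 25 with the DESeq2 test, 23 with no filter and 24 with the replicate block. With 1 library left out, 103 of 150 stayed called. Without the pancreatic libraries 8 of 17 stayed called, and without the squamous libraries 6 of 17, fits that leave 1 library in a group. Same-numbered libraries did not deviate together (correlations from -0.14 to 0.25, with no comparison above 0.1 in all pairs), so the replicate numbers were not taken to pair the samples; the replicate block ended the Rel call at D100 against Control (0.76, adjusted p = 0.0517) and no other of the 10 genes. Of 90 called values of pathway genes, 89 stayed called with DESeq2 size factors, 86 with no filter, 84 with the replicate block, 88 of 88 with DESeq2, 421 of 540 with 1 library left out, 33 of 52 without the pancreatic and 22 of 65 without the squamous libraries. The block ended the calls of Tlr2 (-0.52, adjusted p = 0.0621) and Ikbkb (-0.27, 0.0553) in APX3330 against saline D48.

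Counts of the 10 genes called moved as follows. With no filter they were 3 for APX3330 against saline D27 (1 as reported), 2 for APX3330 against Control (1), 5 for D27 against Control (2), 2 for D48 against D27 (0), 2 for D100 against D27 (1) and 7 for D100 against D48 (3). DESeq2 called 2, 2, 1 and 2 for APX3330 against saline D27, APX3330 against Control, D48 against D27 and D100 against D27, and 3, 4 and 4 for D27 against Control (2), D100 against Control (3) and D100 against D48 (3). Without the pancreatic libraries 3 were called for APX3330 against saline D48 (7), 3 for D48 against Control (7) and 4 in the F test (7). Without the squamous libraries 0 were called for APX3330 against Control (1), 0 for D27 against Control (2), 2 for D48 against Control (7), 1 for D100 against Control (3) and 0 for D100 against D27 (1). With 1 library left out the counts ran from 0 to 2 for APX3330 against saline D27, 4 to 6 for APX3330 against saline D48, 0 to 0 for APX3330 against saline D100, 1 to 2 for APX3330 against Control, 1 to 3 for D27 against Control, 3 to 7 for D48 against Control, 2 to 4 for D100 against Control, 0 to 1 for D48 against D27, 0 to 2 for D100 against D27, 2 to 5 for D100 against D48, and 4 to 8 in the F test.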
